A study of Mus musculus with 5 samples.

Results

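Genes of sterol and fatty acid synthesis were examined in RNA-seq counts of mature thymocytes sorted as CD8 single-positive (SP), the CD8 T cells of the thymus shortly before export. The 40 genes were taken by symbol from the 35976 genes in the files, and all 40 had a row. They are 5 regulators of the SREBP pathway, 18 enzymes of sterol synthesis, 3 genes of sterol sensing and efflux, and 14 genes that make, desaturate, elongate or activate fatty acids. The list does not hold every enzyme of either pathway. Libraries came from mice of genotype Runx3 +/+ (n = 2) and of genotype Runx3 +/WRPW (n = 3), which carry 1 copy of an allele named WRPW of Runx3, a Runt-domain factor of the CD8 lineage. The labels give no age and no agent, and they name no other allele in either genotype. Nor do they tie each library to an animal of its own, and p-values here measure only the spread between libraries, which may be technical.

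As background, sterol regulatory element-binding proteins (SREBPs) are membrane-held transcription factors. When membranes are poor in sterol, the escort protein SCAP carries them to the Golgi, where proteases release the active part. INSIG proteins hold SCAP back when sterol is plentiful. Srebf2 drives mainly the sterol enzymes and Srebf1 mainly the fatty acid enzymes, while liver X receptors (LXRs) sense oxidised sterols and raise the efflux pumps. In T cells these pathways are known for supplying membrane lipid when cells grow and divide.

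Total counts ran from 15715242 to 43758550. Runx3 +/WRPW library 2 stood apart, with a count at 27414 genes against 17237 to 18967 in the other libraries. Runx3 transcripts stood at 273 and 357 CPM (counts per 1000000 counts of the library, scaled by its TMM factor) in Runx3 +/+ and at 394, 337 and 422 CPM in Runx3 +/WRPW, and they do not show which allele was present. The CD8 SP part of the label was met by its markers, with Cd8a at 2201 to 2634 CPM and Cd4 at no more than 5.35 CPM in any library. These markers do not tell mature from immature CD8 SP cells, and maturity was not checked. Of markers of other cells, summed levels in Runx3 +/WRPW library 2 were 12.9 CPM for macrophages, 11.8 CPM for dendritic cells and 13.6 CPM for thymic epithelium, against no more than 6.57, 3.69 and 5.11 CPM in the other libraries. Within each of these lists the members differed in that library. Csf1r stood at 2.52, Flt3 at 5.97 and Foxn1 at 4.61 CPM, but Lyz2 at 0.123 and both Itgax and Krt8 at 0 CPM. A summed level thus does not show how many such cells were present. B cell markers summed to 9.71 and 9.75 CPM in Runx3 +/+ and to 4.18, 5.29 and 3.03 CPM in Runx3 +/WRPW, and of 6 fibroblast and endothelium markers only Pecam1, which T cells also carry, passed the test, as lower. Natural killer, adipocyte and erythroid markers summed to at most 2.09 CPM in any library. The part of these cells in the results was not tested.

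A minority of these genes differed between the genotypes, and how many depended on the test. Of the 39 that passed the filter on low counts, Hsd17b7 rose, Elovl6 and Acsl3 fell, and 36 missed an adjusted p of 0.05 in the quasi-likelihood test of edgeR. That is 7.69% of the tested members, against 13.6% of all 13666 genes tested. Of all genes 6.24% were higher and 7.33% lower in Runx3 +/WRPW, while among the members 1 was higher (2.56%) and 2 were lower (5.13%). DESeq2 called 8 of the 39 (20.5%), against 2705 of all genes (19.8%). With edgeR and a stricter filter that asks for 1 CPM in all libraries of either genotype, 6 of 38 members were called (15.8%), against 17.3% of all genes. The members' share was thus below the share of all genes in the first test and near it in the other 2. It was also below with limma-voom (10.3%, against 14%), RLE factors (7.69%, against 13.3%) and upper-quartile factors (5.13%, against 13.7%). The same held with robust dispersion (7.69%, against 13.9%), no low-count filter (2.5%, against 3.77%) and the replicate number as a block (0%, against 5.52%). The libraries of the genotypes did not overlap for 18 of the 39 members (46.2%), close to the 48.3% of all genes tested. The median absolute log2 fold change was 0.18 over the members and 0.22 over all genes tested. With Runx3 +/WRPW library 2 left out, the called members were Hsd17b7 and Elovl6 (5.13% of members, against 10.8% of all genes). With each of the other libraries left out, 0 of these 3 genes kept its call. Without Runx3 +/WRPW library 1, 0 members were called, against 5.71% of all genes, and without library 3 also 0, against 6.97%. Calls thus became fewer over all genes as well. Leaving out either Runx3 +/+ library left 1 library of that genotype, so calls of those fits are not counted here.

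A missing call does not show that a level was the same, so an interval was set beside each difference. The 95% interval of the log2 fold change, which is not adjusted for the number of genes, lay within a 2-fold change in either direction for 30 of the 36 members that did not pass. Over all genes that did not pass, it did so for 8103 of 11811 (68.6%). The 6 members with wider intervals were Idi1, Sqle, Abca1, Scd1, Scd2 and Acsl1. The genotypes could therefore differ by more than 2-fold in those 6 at the precision of these libraries.

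**Figure D1:**
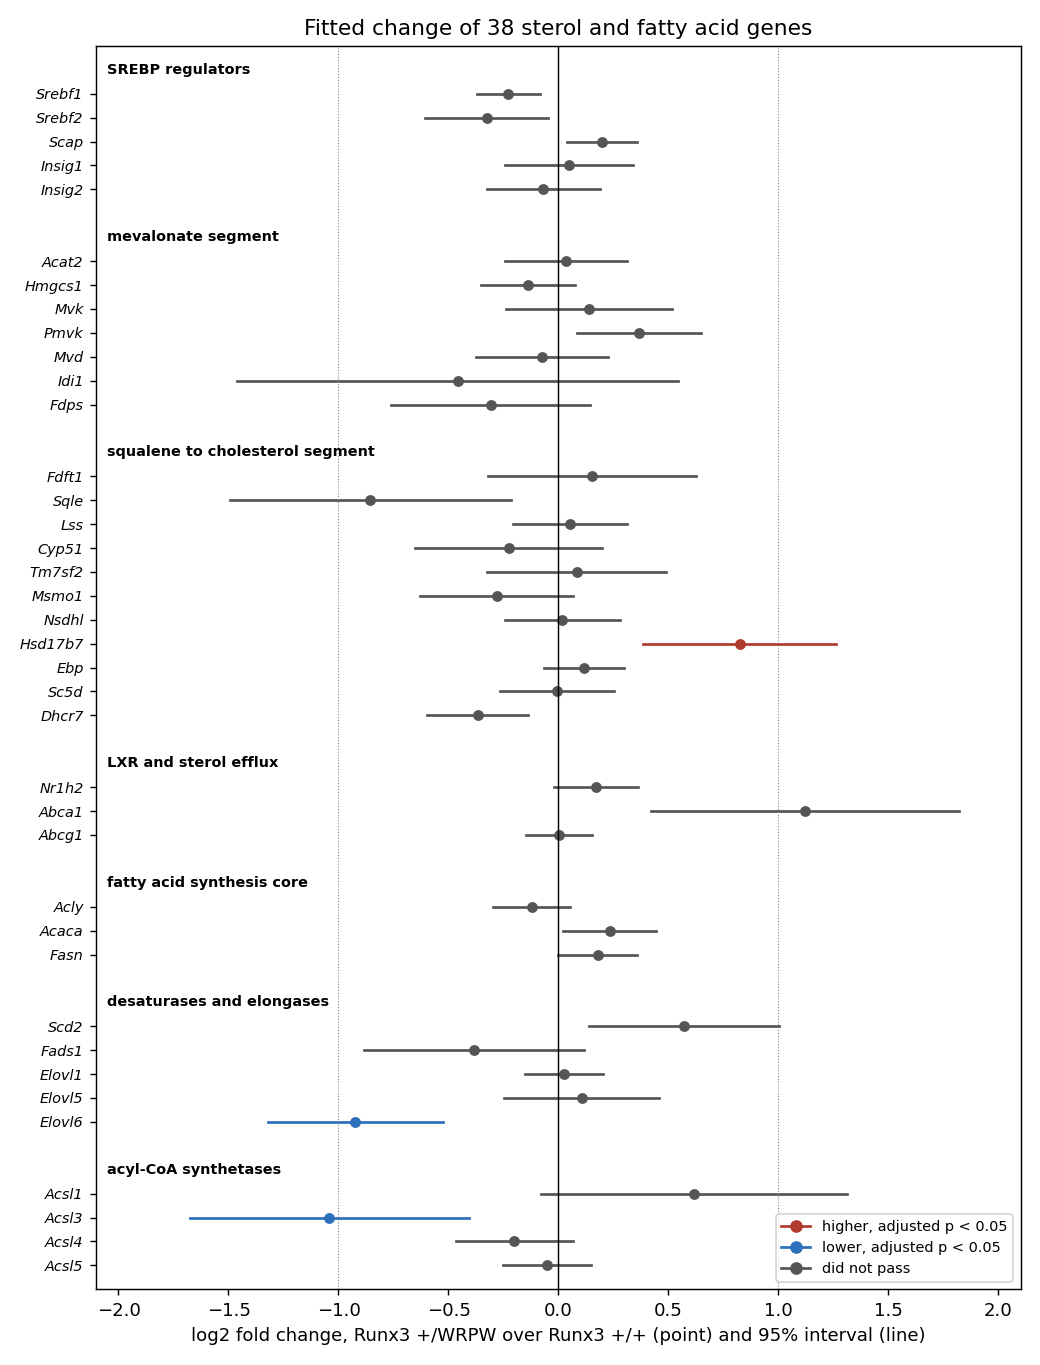
Fitted log2 fold change of Runx3 +/WRPW over Runx3 +/+ (horizontal axis) for 38 genes ordered by role, with the 95% interval as a line and 2-fold changes as dotted lines. Hsd17b7 lies to the right at 0.82, Elovl6 and Acsl3 to the left at -0.92 and -1.04, and most other points sit near 0. Scd1, whose interval runs past the axis, and Fads2, which was not tested, are left out.

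Upstream sequence is shown for the 3 called genes and for Hmgcs1, as a reference with a sterol regulatory element, to let the absence or presence of the element be seen. Each line gives up to 250 bases before a RefSeq start (GRCm38.p6, the assembly of mm10), on the strand of the gene. The stretch ends earlier where the GENCODE M21 annotation already has an exon of the gene. Capitals mark a sterol regulatory element (TCACNCCAC) or a CCAAT box of the factor NF-Y, which works with SREBPs, on either strand (ATTGG where CCAAT lies on the other strand).
Hmgcs1, chr13:119690101-119690350, + strand: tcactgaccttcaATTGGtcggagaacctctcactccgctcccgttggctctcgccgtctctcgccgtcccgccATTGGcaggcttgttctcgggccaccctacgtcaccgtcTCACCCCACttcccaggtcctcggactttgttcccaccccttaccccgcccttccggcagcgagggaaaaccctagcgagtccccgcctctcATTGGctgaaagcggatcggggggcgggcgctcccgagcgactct
Hsd17b7, chr1:169969242-169969455, - strand: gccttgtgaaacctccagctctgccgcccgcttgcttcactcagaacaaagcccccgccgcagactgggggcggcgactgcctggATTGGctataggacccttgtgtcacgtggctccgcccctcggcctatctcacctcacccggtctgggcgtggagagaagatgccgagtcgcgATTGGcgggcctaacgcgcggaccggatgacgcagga
Elovl6, chr3:129532136-129532354, + strand: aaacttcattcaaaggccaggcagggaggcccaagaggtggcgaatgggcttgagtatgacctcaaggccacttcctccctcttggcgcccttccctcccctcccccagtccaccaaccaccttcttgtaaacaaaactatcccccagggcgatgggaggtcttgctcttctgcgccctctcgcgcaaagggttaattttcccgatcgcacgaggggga
Acsl3, chr1:78657575-78657824, + strand: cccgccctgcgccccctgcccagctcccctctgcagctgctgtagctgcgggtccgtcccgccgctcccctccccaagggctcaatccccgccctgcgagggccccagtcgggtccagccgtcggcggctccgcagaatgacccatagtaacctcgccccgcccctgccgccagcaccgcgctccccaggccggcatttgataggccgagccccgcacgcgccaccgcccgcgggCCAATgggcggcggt

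These letters differ between the called genes. In the printed stretches, which differ in length, Hmgcs1 holds the element and 3 CCAAT boxes, Hsd17b7 holds 2, Acsl3 holds 1, and Elovl6 holds neither motif. Windows of 300 bases, 50 of them after the start, were searched on both strands, and 33 of the 40 members had 43 RefSeq promoters. In these windows Hmgcs1 held 4 CCAAT boxes, Hsd17b7 3, Acsl3 1 and Elovl6 0. The further box of Hsd17b7 begins 12 bases before the RefSeq start, past the end of its printed stretch. The sterol element was in 2 of the 43 (4.65%), those of Hmgcs1 and of 1 start of Acsl1, and in 1.24% of all 32851 promoters. A CCAAT box was in 26 of the 43 (60.5%), belonging to 25 genes, and in 37.4% of all promoters. The core Runx motif TGTGGT, on either strand, was in 4 of the 43 (9.30%), those of Acaca, Acly, Elovl5 and Lss, and in 16.8% of all promoters. Those 4 genes did not pass the test. A match is a description of letters, and a missing match says only that these letters are not in this window. Abcg1, Fdft1, Fads1, Scd1, Sqle, Fdps and Scd2 were not analysed here for promoters.

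Of 5 regulators of the pathway, 0 passed the test. Srebf1, which encodes SREBP-1, had 186 and 193 CPM in Runx3 +/+ and 164, 162 and 157 CPM in Runx3 +/WRPW. All 3 Runx3 +/WRPW libraries were below both Runx3 +/+ libraries, and the log2 difference of -0.23 ± 0.06 (SE) missed the threshold (edgeR adjusted p = 0.0541). Srebf2, which encodes SREBP-2, stood at 159 and 207 CPM against 149, 140 and 147 CPM. Its groups did not overlap either, but the Runx3 +/+ libraries were 1.3 times apart, and the log2 difference was -0.33 ± 0.11 (SE; edgeR adjusted p = 0.119). Leaving out Runx3 +/+ library 1 gave -0.54 and leaving out library 2 gave -0.13. Scap, the SREBP escort, lay the other way, at 145 and 158 CPM against 170, 175 and 175 CPM (log2 difference 0.20 ± 0.06, SE; edgeR adjusted p = 0.102), and its difference was 0.10 without Runx3 +/+ library 1. The retention factors Insig1 and Insig2 overlapped between the genotypes. Insig1, itself a classical SREBP target, stood at 11.3 and 12.1 CPM against 12.7, 12.4 and 11.1 CPM, with a 95% interval of the log2 difference from -0.24 to 0.34. Insig2 stood at 28.0 and 30.4 CPM against 28.4, 24.8 and 30.1 CPM, with an interval from -0.32 to 0.19. The median of the 5 log2 differences was -0.068, beside 0.022 over all genes tested. DESeq2 placed Srebf1 (adjusted p = 0.00246) and Scap (adjusted p = 0.0472) past the threshold.

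The early steps, from acetyl-CoA to farnesyl diphosphate, had 0 of 7 genes past the test. Hmgcs1 (chromosome 13, 119690379 to 119708260, mm10), which condenses acetyl groups into HMG-CoA and is a classical SREBP-2 target, was the most abundant of them at 124 and 109 CPM in Runx3 +/+ and 106, 97.3 and 114 CPM in Runx3 +/WRPW. The groups overlapped, and the 95% interval of its log2 difference ran from -0.35 to 0.08. Pmvk, the second kinase of mevalonate, had groups that did not overlap, at 8.87 and 8.15 CPM against 11.1, 11 and 10.7 CPM (log2 difference 0.37 ± 0.12, SE; edgeR adjusted p = 0.0914). Mvk, the kinase before it, stood at 7.70 and 10.2 CPM against 10.1, 9.78 and 9.61 CPM, and Mvd, the decarboxylase after it, at 33.6 and 26.4 CPM against 29.9, 28.4 and 26.7 CPM. Those neighbours of Pmvk overlapped between the genotypes. Acat2, a cytosolic thiolase that joins acetyl-CoA units, stood at 18.3 and 19.0 CPM against 17.8, 18.2 and 21.2 CPM. Its level is uncertain, since 39.1% of its distinct 50-base transcript segments also occur in transcripts of another gene, all of them in its close copy Acat3. Idi1, the isomerase of isoprenoid units, ran from 1.59 to 2.44 CPM in Runx3 +/+ and from 1.10 to 1.78 CPM in Runx3 +/WRPW. Fdps, the farnesyl diphosphate synthase, ran from 11 to 14.2 and from 8.55 to 12.0 CPM. Idi1 and Fdps share 25.3% and 26.2% of such segments with other genes, as do Fdft1 (26.5%) and Acaca (30.4%) among the later genes, and how reads from several copies were counted is not given in the sources used here.

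From squalene to cholesterol, 1 of 11 genes rose and 10 did not pass. Hsd17b7 (chromosome 1, 169949535 to 169969241), the 3-keto-steroid reductase that acts in removing the C4 methyl groups of the sterol ring, stood at 8.54 and 10.6 CPM in Runx3 +/+ and at 19.7, 14.0 and 16.9 CPM in Runx3 +/WRPW. Every Runx3 +/WRPW library was above both Runx3 +/+ libraries, a 1.77-fold rise (log2 fold change 0.82 ± 0.18, SE; edgeR adjusted p = 0.035), and the gene shares none of its 50-base segments with another. The call held without Runx3 +/WRPW library 2 (adjusted p = 0.032) and was lost when any other library was left out (adjusted p of 0.0887 to 0.269).

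Its partners in the same steps of C4 demethylation, the oxidase gene Msmo1 and the dehydrogenase gene Nsdhl, did not pass. Msmo1 stood at 15.0 and 19.5 CPM against 15.0, 13.1 and 14.3 CPM, with a log2 difference of -0.28 ± 0.14 (SE) that was -0.49 without Runx3 +/+ library 1 and -0.08 without library 2. Nsdhl stood at 18.5 and 17.2 CPM against 18.2, 16.5 and 19.2 CPM, with a log2 difference of 0.02 ± 0.11 (SE). The differences of these 3 enzymes were not tested against each other.

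Sqle (chromosome 15, 59315077 to 59331192), the squalene epoxidase that starts the oxygen-dependent part of the pathway, was scarce. It stood at 3.83 and 4.71 CPM in Runx3 +/+ and at 2.17, 2.65 and 2.25 CPM in Runx3 +/WRPW. The groups did not overlap, but a log2 difference of -0.86 ± 0.26 (SE) missed the threshold (edgeR adjusted p = 0.0859). Dhcr7 (chromosome 7, 143823145 to 143848410), which reduces 7-dehydrocholesterol in the last step to cholesterol, stood at 56.2 and 67.4 CPM against 45.8, 47.1 and 50.4 CPM. These groups also stood apart, with a log2 difference of -0.37 ± 0.10 (SE) just outside the threshold (edgeR adjusted p = 0.055). DESeq2 placed Dhcr7 past it (adjusted p = 0.0192), and without Runx3 +/+ library 2 its difference was -0.24.

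The other 6 enzymes of this stretch had log2 differences between -0.23 and 0.15. Cyp51, the lanosterol demethylase, had the lowest, and Fdft1, the squalene synthase, the highest. Fdft1 stood at 12.4 and 13.2 CPM against 11.5, 17.6 and 13.7 CPM, and its difference turned to -0.03 without Runx3 +/WRPW library 2. Lss, the lanosterol synthase, had an interval from -0.21 to 0.31, and Sc5d, the lathosterol desaturase, from -0.27 to 0.25. Ebp, the sterol isomerase, was steady within genotypes at 33.1 and 32.4 CPM against 33.9, 36.5 and 35.7 CPM, with a log2 difference of 0.12 ± 0.07 (SE; edgeR adjusted p = 0.366). Tm7sf2, a sterol C14 reductase, shares exon bases with Vps51 on the same strand and stood at 14.0 and 9.87 CPM against 12.1, 12.9 and 12.7 CPM.

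Genes of sterol sensing and efflux had 0 of 3 past the test, and 1 of them showed the largest difference of all 39. Abca1 (chromosome 4, 53030787 to 53159895), the pump that hands cholesterol to apolipoproteins and a classical LXR target, stood at 145 and 69.9 CPM in Runx3 +/+ and at 218, 235 and 244 CPM in Runx3 +/WRPW. The 3 Runx3 +/WRPW libraries were close together and above both Runx3 +/+ libraries, which were 2.07 times apart. The difference of 2.17-fold (log2 1.12 ± 0.29, SE) missed the threshold (edgeR adjusted p = 0.0541). Leaving out Runx3 +/+ library 1 gave 1.70 on the log2 scale (edgeR adjusted p = 0.0154), and leaving out library 2 gave 0.68 (edgeR adjusted p = 0.0753). DESeq2 gave an adjusted p = 0.0209.

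Abcg1, the pump that passes cholesterol to lipoprotein particles and another LXR target, stood at 268 and 261 CPM against 260, 259 and 273 CPM. Its interval, from -0.15 to 0.15 on the log2 scale, was the narrowest among the members apart from that of Srebf1. Nr1h2, which encodes LXR beta, stood at 124 and 140 CPM against 152, 151 and 140 CPM (log2 difference 0.17 ± 0.08, SE; edgeR adjusted p = 0.211). Macrophages also carry much Abca1 and Abcg1. The most abundant of the 6 macrophage markers, Cd68, stood at 4.43 and 4.87 CPM against 4.25, 5.54 and 5.42 CPM, and the summed list was at 5.79 and 5.71 CPM against 5.55, 12.9 and 6.57 CPM. Its part in the Abca1 values was not tested.

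**Figure D2:**
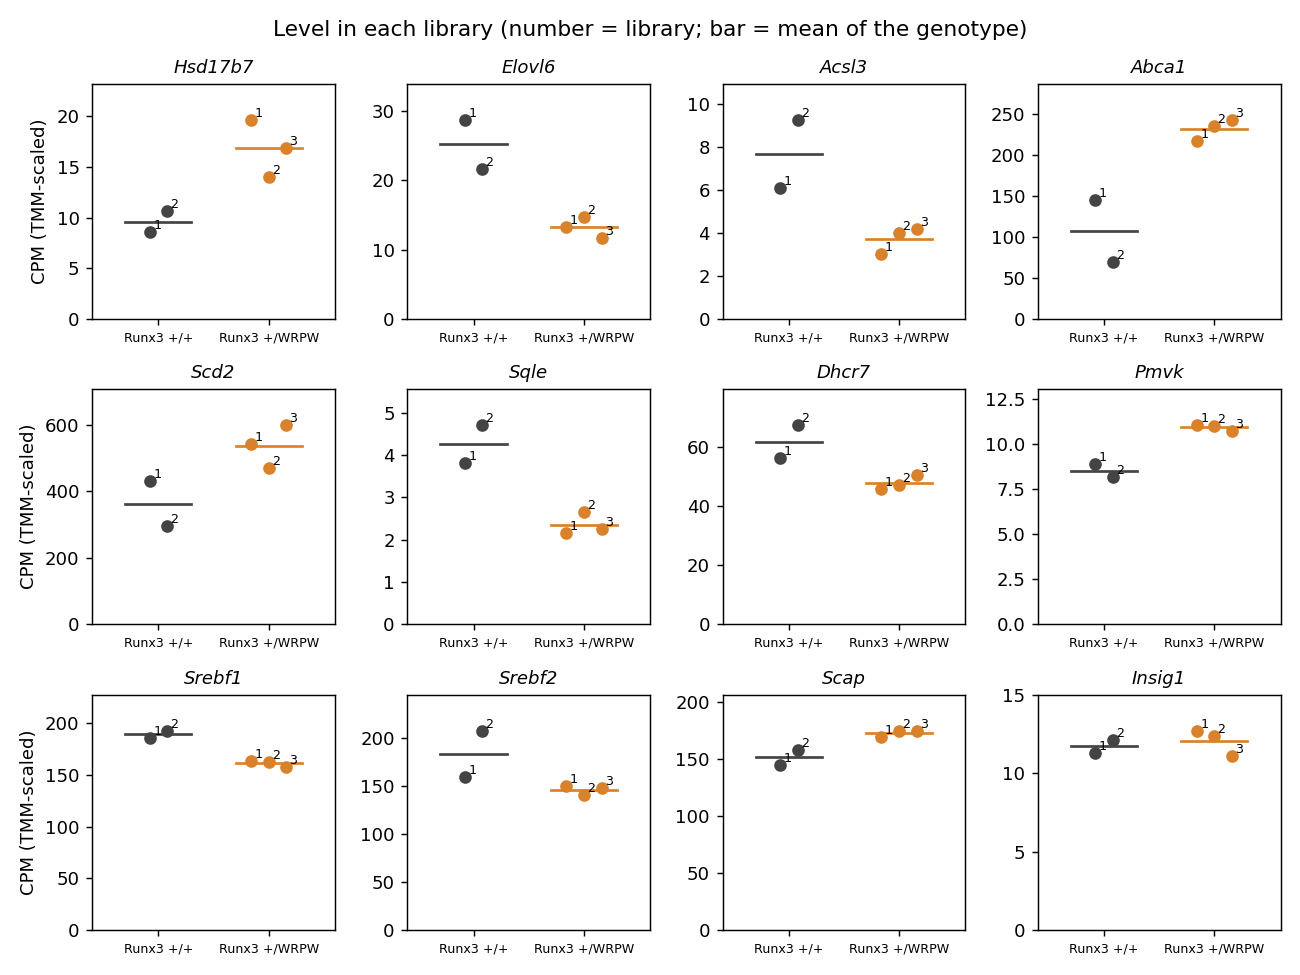
CPM of 12 members in each library (vertical axes from 0), with the library number beside each point and the genotype mean as a bar. Hsd17b7, Abca1 and Scd2 are higher in every Runx3 +/WRPW library, Elovl6, Acsl3, Sqle and Dhcr7 lower, and the Runx3 +/+ libraries of Abca1 lie far apart at 145 and 69.9 CPM.

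Fatty acid genes had 0 higher and 2 lower of 13 tested. The 3 genes that make palmitate did not pass. Acly, which cleaves citrate to cytosolic acetyl-CoA, stood at 295 and 314 CPM against 296, 266 and 275 CPM. Acaca, the acetyl-CoA carboxylase that forms malonyl-CoA, stood at 20.4 and 21.9 CPM against 25.4, 24.2 and 24.9 CPM. Fasn, the fatty acid synthase, stood at 277 and 304 CPM against 341, 311 and 329 CPM. Acaca and Fasn were higher in every Runx3 +/WRPW library, but by 0.23 ± 0.09 and 0.18 ± 0.07 on the log2 scale (SE; edgeR adjusted p = 0.135 and 0.169), and by 0.15 and 0.08 without Runx3 +/+ library 1. All 3 intervals lay within a 1.5-fold change.

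Elovl6 (chromosome 3, 129532355 to 129638495), whose printed upstream stretch holds neither motif, is the elongase that turns palmitate-length chains into stearate-length ones. It stood at 28.8 and 21.6 CPM in Runx3 +/+ and at 13.3, 14.7 and 11.7 CPM in Runx3 +/WRPW, with no overlap. It fell in Runx3 +/WRPW, and the fall was 1.90-fold (log2 fold change -0.92 ± 0.16, SE; edgeR adjusted p = 0.019), the smallest adjusted p of any member. The call held without Runx3 +/WRPW library 2 (adjusted p = 0.0303) and was lost when any other library was left out (adjusted p of 0.053 to 0.0862). Elongases of other substrates did not pass. Elovl1, for very long saturated chains, stood at 60.5 and 62.1 CPM against 61.9, 65.7 and 58.7 CPM, with an interval from -0.15 to 0.20. Elovl5, for polyunsaturated chains, stood at 223 and 246 CPM against 261, 204 and 289 CPM, with an interval from -0.25 to 0.46.

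Among the desaturases, Scd2 was the main stearoyl-CoA desaturase, the enzyme type that makes oleate-like chains. Scd2 (chromosome 19, 44293674 to 44306864) stood at 431 and 296 CPM in Runx3 +/+ and at 542, 471 and 599 CPM in Runx3 +/WRPW. The groups did not overlap, yet a log2 difference of 0.57 ± 0.18 (SE) missed the threshold (edgeR adjusted p = 0.0883). Leaving out Runx3 +/+ library 1 gave 0.83 and leaving out library 2 gave 0.32, and DESeq2 gave an adjusted p = 0.0083. Scd1, the form best known from liver and fat, stood at 3.36 and 0.20 CPM against 0.662, 3.57 and 0.690 CPM. High values thus occurred in 1 library of each genotype, and the interval, from -3.10 to 2.84, is too wide to read a genotype difference from. The adipocyte marker list summed to 0 and 0.120 CPM in Runx3 +/+ and to 0, 1.91 and 0.0919 CPM in Runx3 +/WRPW, and its part in the Scd1 values was not tested. Fads1, the delta-5 desaturase of polyunsaturated chains, stood at 28.1 and 33.6 CPM against 28.9, 17.5 and 24.0 CPM. Fads2, which acts before Fads1 as the delta-6 desaturase, had 2 counts in Runx3 +/+ library 2, 1 in Runx3 +/WRPW library 2 and 0 in the others, and was not tested.

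Long-chain acyl-CoA synthetases, which activate fatty acids for use, had 1 lower of 4 tested. Acsl3 (chromosome 1, 78657825 to 78707743), a synthetase of the endoplasmic reticulum and lipid droplets, stood at 6.07 and 9.27 CPM in Runx3 +/+ and at 3.02, 4.0 and 4.18 CPM in Runx3 +/WRPW. The groups did not overlap and the fall was 2.06-fold (log2 fold change -1.04 ± 0.26, SE), just past the threshold (edgeR adjusted p = 0.0497). Of its exon bases, 244 are shared with Utp14b on the same strand. It was lost whenever any single library was left out (adjusted p of 0.0792 to 0.474). Acsl1 lay the other way at 5.32 and 4.31 CPM against 6.60, 9.91 and 5.61 CPM, without passing (log2 difference 0.61 ± 0.29, SE; edgeR adjusted p = 0.216), and at 0.345 without Runx3 +/WRPW library 2. The abundant forms Acsl4, which prefers arachidonate, and Acsl5, a mitochondrial and reticular form, had log2 differences of -0.20 ± 0.11 and -0.05 ± 0.08 (SE).

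Sterol and fatty acid genes were then set side by side. Of 18 sterol enzymes, 9 had log2 differences above 0 and 9 below, with a median of 0.0049. Of 13 fatty acid genes tested, 6 were above and 7 below, with a median of -0.052, and the median over all genes tested was 0.022. The median absolute difference was 0.15 for the sterol enzymes and 0.20 for the fatty acid genes, with ranges from -0.86 to 0.82 and from -1.04 to 0.61. This difference was not tested. Summed over the list, sterol enzymes stood at 427 and 431 CPM in Runx3 +/+ and at 408, 392 and 424 CPM in Runx3 +/WRPW. The groups did not overlap, with Runx3 +/WRPW library 3 close to the lower Runx3 +/+ library. Abundant genes weigh most in such a sum, here Hmgcs1 and Dhcr7. Summed by segment, the genotypes overlapped. The early steps ran from 189 to 205 CPM in Runx3 +/+ and from 175 to 195 CPM in Runx3 +/WRPW. The steps from squalene to cholesterol ran from 222 to 242 CPM and from 217 to 229 CPM. Fatty acid genes summed to 1600 and 1536 CPM against 1798, 1581 and 1828 CPM, with overlap.

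Levels per kilobase of exon put the fatty acid genes on top. On this scale the 3 highest members in Runx3 +/+ were Elovl5 at 66.5 ± 4.54 CPM per kilobase (SD, n = 2), Scd2 at 66.5 ± 17.5 and Acly at 57.7 ± 2.51. In Runx3 +/WRPW, Scd2 led at 98.3 ± 11.8 CPM per kilobase (SD, n = 3), ahead of Elovl5 at 71.3 ± 12.3. Of sterol enzymes, Hmgcs1 was highest in Runx3 +/+ at 25.4 ± 2.33 CPM per kilobase, and did not differ beyond its spread from Srebf2 at 25.5 ± 4.77 and Acsl5 at 25 ± 1.03. The lowest, below 1 CPM per kilobase in both genotypes, were Sqle, Idi1, Acsl1, Scd1 and Fads2. Exon length is that of all annotated isoforms joined, and isoform use was not measured, so a gene whose long isoforms are little used would be placed too low. Acaca has the longest such exon set, 17074 bases. The largest moves in rank belonged to Elovl6, from 25 to 33, and to Abca1, Srebf2 and Hsd17b7, each by 5 places.

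**Figure D3:**
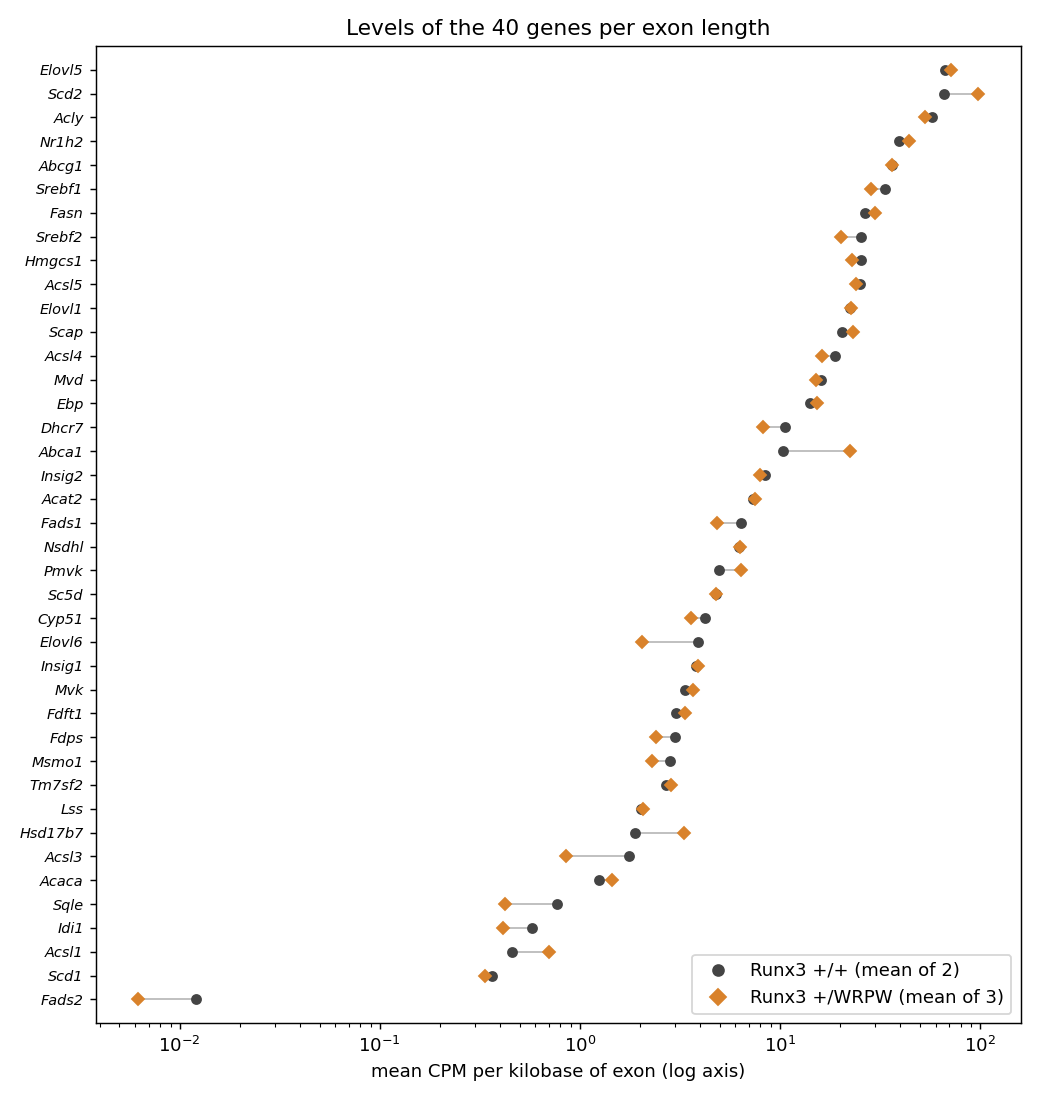
Mean CPM per kilobase of exon (log axis) of the 40 members in Runx3 +/+ (circles, mean of 2 libraries) and Runx3 +/WRPW (diamonds, mean of 3), ordered by the Runx3 +/+ level. Most pairs of marks lie close together. In Runx3 +/WRPW, Abca1, Hsd17b7, Acsl1 and Scd2 lie further right, and Acsl3, Elovl6 and Sqle further left. Fads2 also lies further left but rests on 3 counts in all.

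In 5 lists of other lipid genes, 8 of 58 tested genes passed, 4 higher and 4 lower, or 13.8% against 13.6% of all genes tested. With Runx3 +/WRPW library 2 left out, 4 of 58 passed (6.90%, against 10.8% of all genes). Of 11 further genes of SREBP processing and sterol sensing, 1 rose and 10 did not pass. Erlin2, a scaffold of the sterol-regulated degradation machinery, stood at 28.3 and 29.8 CPM against 37.2, 37.5 and 36.2 CPM (1.28-fold higher, edgeR adjusted p = 0.0288). Of 9 genes tested for sterol trafficking and esterification, 1 fell. Lipa, the lysosomal lipase that frees cholesterol from its esters, stood at 152 and 149 CPM against 97.4, 93.8 and 109 CPM (1.5-fold lower, edgeR adjusted p = 0.00673). The call of Erlin2 was lost with any single library left out, and that of Lipa without either Runx3 +/+ library.

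Of 9 further genes of sterol synthesis and the isoprenoid branch, Fntb rose and Lbr fell. Fntb, the beta subunit of protein farnesyltransferase, stood at 68.4 and 55.5 CPM against 110, 113 and 114 CPM, a 1.83-fold rise (edgeR adjusted p = 0.00464). It was called with any single library left out (adjusted p of 0.0156 to 0.0388), and it shares 257 exon bases with Churc1 on the same strand. Lbr, a lamin receptor of the inner nuclear membrane that also has sterol C14 reductase activity, stood at 361 and 355 CPM against 291, 239 and 264 CPM (1.35-fold lower, edgeR adjusted p = 0.0303). Its call was lost without either Runx3 +/+ library or without Runx3 +/WRPW library 3.

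Acss2 (chromosome 2, 155517948 to 155585724) had the largest change among the called genes of these lipid lists. This cytosolic synthetase makes acetyl-CoA from acetate, the substrate shared by both pathways. It stood at 36.6 and 23.4 CPM in Runx3 +/+ and at 9.57, 9.23 and 9.47 CPM in Runx3 +/WRPW, a 3.17-fold fall (log2 fold change -1.66 ± 0.19, SE; edgeR adjusted p = 0.005). The 3 Runx3 +/WRPW libraries were almost equal and below both Runx3 +/+ libraries, and the call held with any single library left out (adjusted p of 0.0114 to 0.0252). Acss2 shares exon bases with Gss, Ggt7 and Acss2os on the other strand, and without a stated strand setting their reads cannot be told apart. It was the sole call among 14 tested genes of fatty acid supply and elongation, while Acly, the other source of cytosolic acetyl-CoA, did not pass.

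Fatty acid oxidation, the opposing pathway, had 2 higher and 1 lower of 15 tested (20%, against 13.6% of all genes). Cpt1a, the gate of mitochondrial import, stood at 54.6 and 43.7 CPM against 35.5, 32.4 and 35.1 CPM (1.42-fold lower, edgeR adjusted p = 0.0319). Hadh, of the short-chain steps, was 1.37-fold higher (edgeR adjusted p = 0.0229), and Decr1, which handles unsaturated chains, 1.45-fold higher (edgeR adjusted p = 0.0379). The calls of Cpt1a, Hadh and Decr1 were lost with any single library left out.

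Cell division genes moved in the same libraries. Of 12 cell division genes, 11 fell, 0 rose and 1 did not pass, with a median log2 fold change of -2.38. That is 91.7% called, against 13.6% of all genes tested. Leaving out Runx3 +/WRPW library 1 or 3 gave 9 called genes (75%, against 5.71% and 6.97% of all genes). Leaving out Runx3 +/WRPW library 2 gave 11 (91.7%, against 10.8%). The log2 fold change of Mki67 was -3.04 without Runx3 +/+ library 1 and -2.95 without library 2. Mki67, a marker of cycling cells, stood at 244 and 254 CPM against 30.3, 31.7 and 33.0 CPM (7.85-fold lower, edgeR adjusted p = 5.19e-05). Log2 fold changes were -2.78 for Top2a, the mitotic topoisomerase, and -2.88 for Rrm2, a subunit of ribonucleotide reductase. Differences were smaller for Pcna (-0.72), Mcm5 (-0.52) and Mcm2 (-0.21), the last being the gene that did not pass. Summed levels of the list were 1189 and 1263 CPM in Runx3 +/+ and 516, 502 and 536 CPM in Runx3 +/WRPW. In bulk samples, fewer cells of a kind and less RNA per cell cannot be told apart. The cell division list split the libraries as the genotypes did, so every member whose genotypes do not overlap splits with it, among them Elovl6, Acsl3 and Sqle, which were lower, and Hsd17b7, Abca1 and Scd2, which were higher. The part of cell division in their values was not tested.

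**Figure D4:**
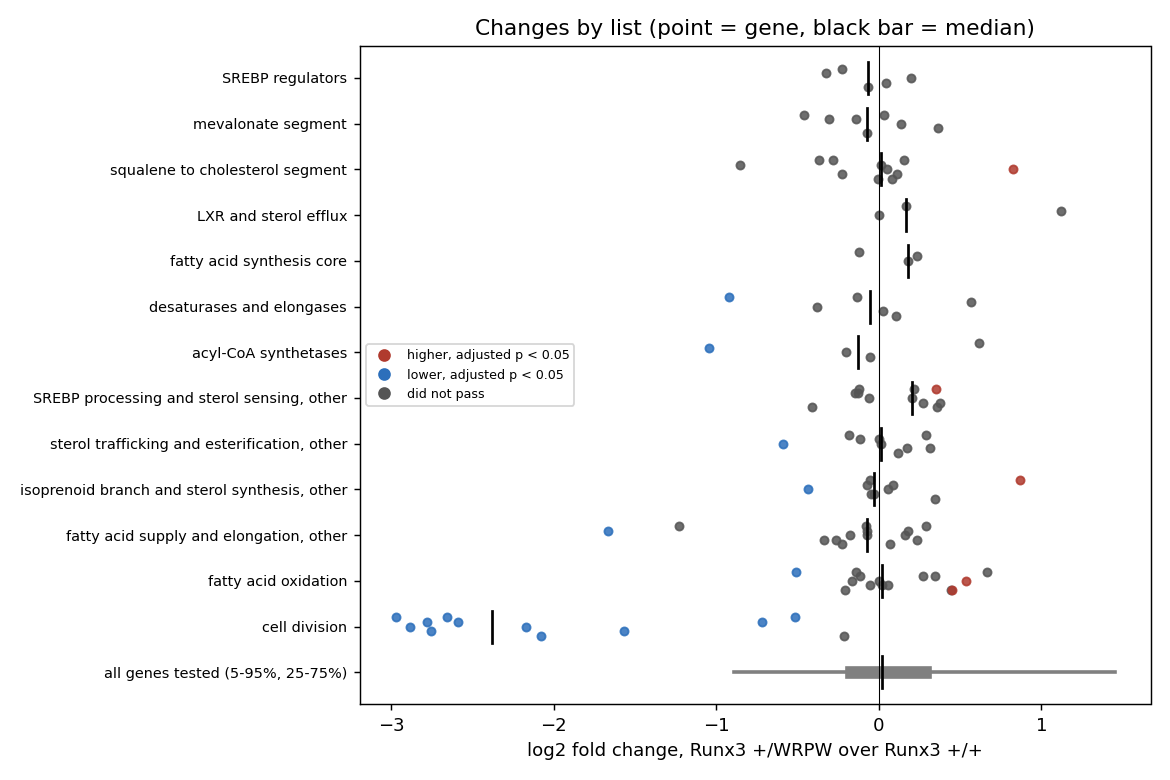
Log2 fold change of Runx3 +/WRPW over Runx3 +/+ (horizontal axis) for each tested gene of the member and pathway lists, with list medians as black bars and the spread of all genes tested at the bottom (thick line 25th to 75th, thin line 5th to 95th percentile). Medians of the sterol and fatty acid lists lie between -0.13 and 0.21, while that of cell division lies at -2.38.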

How the data were processed

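The deposited values are raw read counts per gene symbol, 1 file per library, without scaling. The submitters' processing notes list mm10 and, among tools, edgeR 3.36.0, featureCounts 2.0.8, HISAT2 2.2.1 and cutadapt 4.0, with no role given. Annotation, strand setting and the treatment of multi-mapping reads are not stated there. The column headers of Runx3 +/+ library 2 and Runx3 +/WRPW library 2 do not bear those names, so assignment followed the sample records. The fit used R 4.3.3 and edgeR 4.0.16 (TMM, filterByExpr with minimum count 10, glmQLFit and glmQLFTest on genotype), and p-values were adjusted by Benjamini-Hochberg over all 13666 genes tested. Standard errors derive from the F statistic of each gene, and intervals use the test's total degrees of freedom. CPM are TMM-scaled on full library totals; 3 counts equal 0.0686 to 0.191 CPM, which covers counting error only. No 2 libraries agreed within sampling noise (smallest chi-square per gene 15.3). The fit was also run on simulated counts that had the same spread for every gene, smaller than the common spread estimated here. That run therefore does not measure the error rate of the fit in these libraries. Exon lengths, overlaps, coordinates and shared 50-base segments came from GENCODE M21 (GRCm38), promoters from RefSeq GRCm38.p6. Of 166 listed genes, 1 had no row, and Ufd1 was read under its older symbol. Tried as alternatives were DESeq2 1.42.0, limma-voom (limma 3.58.1), factors by RLE or upper quartile, 2 other filters, robust dispersion, the replicate number as a block, and leaving out each library. All members are named, with up to 3 called genes per direction from each pathway list and the top marker where a marker list is set beside a result. Members and lists were chosen with earlier results of these data known.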

Additional observations from a re-analysis of the deposited data

How the results depend on the processing

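Of the 39 tested members, 25 kept the sign of their log2 fold change under all 13 alternatives, among them Hsd17b7, Elovl6, Acsl3, Abca1 and Scd2. Members called lower numbered 2, and 1 with upper-quartile factors or no low-count filter, 4 with DESeq2 or the 1 CPM filter, and 0 to 1 with a library left out. Members called higher numbered 1, and 4 with DESeq2, 2 with limma-voom or the 1 CPM filter, 0 with no low-count filter, and 0 to 1 with a library left out. Over all genes the 1855 calls became 1079 with no low-count filter and 277 to 1431 with a library left out. With the replicate number as a block, 0 members were called lower, 0 higher and 754 genes in all, with 1 residual degree of freedom. The numbers were not taken as pairs, since they are not stated to mark a shared litter, batch or day. Same-numbered libraries had correlations of deviations of -0.033 and 0.011. With 2 Runx3 +/+ libraries, the deviations of 1 mirror those of the other, so these values cannot show or exclude a pairing. A lone Runx3 +/+ library was assumed to vary like the other genotype. The median of the sterol enzymes was -0.0386 in the replicate block fit and -0.0376 to -0.00456 with a library left out, that of the fatty acid genes -0.0395 to 0.0215 and that of the regulators -0.161 to -0.00369. Signs turned for members whose log2 differences in the main fit lay between -0.23 (Cyp51) and 0.15 (Fdft1), none of them called. With a library left out the ranges were -0.0409 to 0.108 for Insig1, -0.0439 to 0.0787 for Acat2, -0.0864 to 0.351 for Mvk, -0.246 to 0.0718 for Mvd, -0.0287 to 0.287 for Fdft1, -0.0345 to 0.101 for Lss, -0.457 to 0.00231 for Cyp51, -0.16 to 0.317 for Tm7sf2, -0.0441 to 0.0657 for Nsdhl, -0.0842 to 0.0328 for Sc5d, -0.0263 to 0.0105 for Abcg1, -1.38 to 2.96 for Scd1, -0.0321 to 0.066 for Elovl1 and -0.00124 to 0.228 for Elovl5. In the replicate block fit Acat2 was at -0.0443, Nsdhl at -0.0328, Abcg1 at -0.02, Scd1 at 0.625 and Elovl5 at -0.0109. Abcg1 was at -0.00293 with RLE factors, -0.00298 with DESeq2 and -0.00454 with no filter, Sc5d at 0.0233 with upper-quartile factors, and Scd1 at 0.296 with limma-voom. The cause of these changes was not tested. Scd1 was not tested under the 1 CPM filter. The shallowest library had 15715242 counts. In the main fit, intervals reached past 2-fold for genes of a few CPM, such as Idi1, Sqle and Acsl1. They also did so for the abundant Abca1 and Scd2, while those of Mvk and Pmvk, at 7.70 to 11.1 CPM, did not. The part of depth or level in these widths was not tested.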
